A study of Mus musculus with 20 samples.

Results

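The regions described here were clustered enhancers: transcribed enhancers that lay close to one another on a chromosome. Enhancers were joined in order of position wherever the gap to the next was at most 12500 bp, and the members are all enhancers in joined (stitched) groups of 4 or more. This rule used positions and no measured values. It gave 3728 members in 654 groups, out of 11222 enhancers; another 3962 enhancers lay in groups of 2 or 3, and 3532 stood alone. The widest gap inside any joined run was 12500 bp and the narrowest gap that was not joined was 12502 bp.

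The enhancers were measured in macrophages grown from bone marrow of C57BL/6 mice with macrophage colony-stimulating factor. The assay, nAnT-iCAGE, sequences capped RNA starts without amplification, and each tag marks the capped start of 1 RNA molecule. The 10 groups of libraries were control cells at 0 h, and cells given interferon gamma (IFN-γ), CpG DNA (an agonist of the receptor TLR9), or both, for 3, 9 or 15 h. Each had 2 libraries, which the series describes as biological replicates, so that p-values measure the spread between 2 libraries a group. The only untreated cells are those of 0 h, and time in culture and stimulus cannot be told apart against control. Polarization by IL-4 or IL-10 also stands in the protocols, without saying for which cells, as does a stimulation length other than these times. Positions are on mm39 as deposited. Genes, promoters and sequences at these positions were not analysed here, and whether any enhancer overlaps a promoter or gene was not checked.

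Active enhancers are transcribed outward in both directions into short, unstable RNAs, and the amount of this RNA follows the activity of the enhancer. Runs of enhancers within such distances are the raw material of super-enhancers, which are usually defined by stitching and then ranking by a chromatin mark; no such ranking was made here. In macrophages IFN-γ acts through its receptor on the cell surface and interferon regulatory factors, whereas CpG DNA reaches TLR9 in endosomes and activates NF-κB and AP-1. Both sets of factors act on enhancers that the lineage factors of the macrophage have opened.

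Library totals ranged from 12776280 to 13855472 tags. Enhancers took 12879 to 29794 of them and the members 5528 to 12710. Replicate libraries correlated at r = 0.81 to 0.87 across stitched groups on log values. Their spread was above counting noise, with a chi-square of 1.13 to 1.36 for each degree of freedom. A group had a median of 9 tags per library, and tags of its members were summed before any test.

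A stitched group had 4 to 21 members with a median of 5. Groups of 4 were the commonest (255), and 44 groups had 10 or more. They spanned 1526 to 77552 bp (median 14684 bp), with a median of 1867.5 bp between neighbours and gaps from 549.5 to 4654 bp between the quartiles. Groups were found on all 21 chromosomes of the table, with 6 on X. Members carried more tags than other enhancers: the median over 20 libraries was 28 per member, against 21.5 in groups of 2 or 3 and 16 for single enhancers. They were also wider, with a median width of 317 bp against 275 bp for the rest. Tags were unevenly spread inside a group. The member with the most tags, called the leading member below, held a median of 40.4% of its group's tags, with a range of 14.3% to 93.6%; in 169 groups it held the majority.

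The largest group by members was chr14:25458377-25520465, with 21 members over 62088 bp and 534 tags over all libraries. The next were chr13:5817865-5895417 (20 members, 77552 bp, 1444 tags), chr17:84408167-84456562 (17 members, 575 tags), chr4:144937920-145010319 (16 members, 799 tags) and chr16:24826758-24880121 (14 members, 509 tags). By tags the first was chr8:84919232-84930939, whose 7 members held 1453 tags within 11707 bp, followed by the 20-member group on chromosome 13. The other groups among the 5 with the most tags were chr6:31088844-31110319 (10 members, 1127 tags), chr17:26716256-26763516 (13 members, 1126 tags) and chr3:95542875-95583128 (12 members, 1112 tags).

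The first question was how each stitched group responded as a whole. The tags of all members were summed for each group, and sums of every stitched unit of the table, singles and pairs included, were tested together with edgeR's quasi-likelihood test. Of 5882 units 2391 had enough tags, among them 650 of the 654 groups. A group was called when its Benjamini-Hochberg adjusted p over these 2391 units was under 0.05. Scaling used TMM factors on enhancer tags, so a change is relative to the bulk of enhancers. Where scaling to whole-library totals moved the split of rises and falls by more than 10 percentage points, that split is given beside the first.

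IFN-γ changed 182 of 650 groups at 3 h (105 higher, 77 lower; all units 17.7%, with 11.6% higher and 6.15% lower). At 9 h it changed 255 (145 higher, 110 lower; all units 28.1%, with 17.5% higher and 10.6% lower), and at 15 h 202 (120 higher, 82 lower; all units 22.2%, with 14.5% higher and 7.7% lower). Scaled to whole-library totals the split was 61 higher and 114 lower at 3 h and 73 higher and 115 lower at 15 h. With 1 of the 4 libraries of a comparison left out, the calls numbered 96 to 120 for 3 h, 133 to 178 for 9 h and 113 to 137 for 15 h.

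The rises under IFN-γ included groups that were almost silent in control cells. The 6 members of chr7:74333671-74347823 had no tag in either control library and no tag in any of the 6 libraries given CpG alone. IFN-γ for 3 h gave 14 and 20 tags, 9 h gave 14 and 26, and 15 h gave 5 and 13. At 9 h the group was at least 13.2-fold higher than control, taking 3 tags over the 2 control libraries as the floor (adjusted p = 6.9e-10), and its 3 tested members were each called higher. With no tag in control, these members had enough tags for a test only through stimulated libraries. The 4 members of chr13:55166325-55172302 had 0 and 1 tags in control and 36 and 37 with IFN-γ at 9 h, a ratio of 72.1 (95% interval 12.53 to 2884, for counting error only; ratios here set the higher group over the lower). Their log2 change was 5.98 with a standard error (SE) of 0.68 (adjusted p = 6.3e-16). The leading member held 75.2% of this group's tags, and the other 3 members pooled were also called at 9 h (log2 change 6.29, adjusted p = 1.5e-04).

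The clearest broad rise was in the 10-member group chr4:132521270-132543954. Control libraries had 3 and 1 tags in it, and CpG alone at 3 h gave 2 and 1. IFN-γ gave 31 and 23 at 3 h, 43 and 73 at 9 h and 52 and 49 at 15 h. CpG alone at 9 h was also called higher than control (log2 change 2.51, adjusted p = 0.0024). With IFN-γ at 9 h the log2 change was 4.88 (SE 0.46, adjusted p = 4.5e-23). Its tags were spread along the whole 22684 bp. Under IFN-γ at 9 h all 10 members had tags, and none had more than 1 tag in a control library. The leading member, chr4:132521270-132521724, went from 1 and 0 tags in control to 14 and 19 at 9 h, and chr4:132534137-132534471, farther along, had 8 and 7 against 0 and 0. All 5 tested members were called higher at 9 h. With at most 1 tag in a control library, they had enough tags for a test only through stimulated libraries. Their calls are therefore not independent of the rise. Without the leading member the log2 change was 4.62 (adjusted p = 1.5e-13).

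Other large rises under IFN-γ were in chr15:74856684-74875994 and chr2:144132291-144143399. The former (6 members) had 27 and 26 tags at 3 h against 2 and 1 in control (ratio 18.4, counting interval 5.95 to 91.9; log2 change 4.55, SE 0.58, adjusted p = 2.4e-12). At 15 h it had 23 and 21, and there the call went when the leading member was left out (log2 change 2.13, adjusted p = 0.057). The latter (6 members) had 26 and 21 tags at 3 h against 0 and 3 (ratio 16.3, counting interval 5.24 to 81.8; log2 change 4.37, SE 0.61, adjusted p = 1.6e-10). In all of these groups both stimulated libraries lay above both control libraries, which the rule for naming a rise required.

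Falls under IFN-γ included groups left with 0 to 4 tags in a library. The 5 members of chr14:122222995-122251329 fell from 24 and 34 tags to 3 and 0 at 3 h (log2 change -3.68, SE 0.68, adjusted p = 4.4e-06). The ratio of control to IFN-γ was 18.6, with a counting interval of 6.06 to 92.8. The 9 members of chr12:85557290-85580703 had 19 and 21 tags in control and 1 and 0 at 15 h (ratio 39.0, counting interval 6.61 to 1579; log2 change -4.64, SE 0.83, adjusted p = 1.4e-06). In chr7:141947031-141953422 the fall at 3 h was from 19 and 21 tags to 3 and 0 (ratio 12.8, counting interval 4.09 to 64.8; log2 change -3.14, SE 0.68, adjusted p = 1.3e-04). None of the 7 members of chr15:66988455-67018873 had enough tags for a test of its own, yet their sum fell from 18 and 21 tags to 0 and 4 at 9 h (log2 change -3.09, SE 0.67, adjusted p = 6.5e-05). In bulk samples such as these, fewer cells of a type and less RNA per cell cannot be told apart.

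CpG alone changed fewer groups against control: 63 at 3 h (36 higher, 27 lower; all units 5.73%, with 3.76% higher and 1.97% lower), 143 at 9 h (80 higher, 63 lower; all units 13.9%, with 7.78% higher and 6.15% lower) and 113 at 15 h (57 higher, 56 lower; all units 11.3%, with 5.77% higher and 5.52% lower). The whole-library split at 3 h was 13 higher and 27 lower. With 1 library left out the calls numbered 13 to 20 for 3 h, 71 to 76 for 9 h and 52 to 70 for 15 h. DESeq2 called 18 of the 63 groups at 3 h.

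The 13-member group chr17:18082547-18122486 rose along its 39939 bp. It had 8 and 1 tags in control, 19 and 22 with CpG at 3 h, 42 and 44 at 9 h and 33 and 34 at 15 h; with IFN-γ it had 7 and 1, 4 and 7, and 3 and 0 at these times. The log2 change at 3 h was 2.44 (SE 0.49, adjusted p = 2.4e-04), and it was not called at 3 h without control replicate 2. At 9 h it was 3.16 (SE 0.43, adjusted p = 9.2e-11). No member dominated, since the leading one held only 14.3% of tags. At 3 h no member was called by itself, although 7 of the 8 tested had a positive fitted change. The member chr17:18102988-18103257 had no tag in control or in the 2 libraries of CpG at 3 h and 8 and 7 tags at 9 h, while chr17:18087218-18087620 already had 6 and 0 at 3 h.

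In chr19:11333182-11350041 the response of the group was that of 1 enhancer. The sum rose from 5 and 1 tags in control to 41 and 52 with CpG at 9 h (log2 change 3.84, SE 0.45, adjusted p = 2.7e-14) and to 66 and 65 at 15 h (log2 change 4.48, SE 0.42, adjusted p = 1.1e-23). The leading member, chr19:11349540-11350041, held 92.9% of the tags, with 63 and 61 of those at 15 h. The other 3 members had too few tags for a test. The 5 members of chr16:44587356-44599524 rose from 2 and 2 tags to 26 and 25 at 9 h (log2 change 3.53, SE 0.59, adjusted p = 4.3e-07), and without the leading member the rise was still called (adjusted p = 0.0070). In chr7:126744723-126765084 the sum rose from 0 and 2 tags to 14 and 26 at 9 h (ratio 20.3, counting interval 5.26 to 173; log2 change 4.09, SE 0.71, adjusted p = 1.7e-06), and was not called without its leading member (log2 change 2.40, adjusted p = 0.099).

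The other rises under CpG at 3 h were not called in every run that left out a library. The sum of chr17:43864805-43891746 rose from 2 and 6 tags to 15 and 23 at 3 h (log2 change 2.49, SE 0.52, adjusted p = 4.0e-04), and that call was lost without control replicate 1 or CpG replicate 2. The rise of chr10:18810261-18819607 from 5 and 6 to 19 and 19 tags (log2 change 2.05, SE 0.50, adjusted p = 0.0035) was lost without control replicate 1 or CpG replicate 1, and with DESeq2. At 15 h chr2:170152924-170166793 rose from 3 and 2 tags to 23 and 22 (log2 change 3.20, SE 0.57, adjusted p = 3.2e-06).

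Among falls under CpG, the 8 members of chr7:19042481-19061387 went from 41 and 37 tags to 3 and 4 at 15 h (log2 change -3.33, SE 0.49, adjusted p = 2.8e-09). In chr9:110495048-110515211 the fall at 9 h was from 26 and 24 tags to 4 and 3 (log2 change -2.84, SE 0.57, adjusted p = 4.7e-05), and both tested members were called lower. Both tested members were also called in chr4:47313823-47320185, which went from 31 and 28 tags to 5 and 5 at 9 h (log2 change -2.58, SE 0.47, adjusted p = 4.4e-06). The sum of chr5:33155174-33167454 fell from 24 and 17 tags to 4 and 1 at 15 h (log2 change -2.87, SE 0.61, adjusted p = 1.5e-04). At 3 h the falls of chr14:122222995-122251329 (5 and 8 tags, adjusted p = 0.012) and chr8:123633162-123668225 (2 and 4 tags against 16 and 19, adjusted p = 0.0096) were each lost without control replicate 2, without either CpG library, and with DESeq2.

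IFN-γ and CpG together changed 307 groups at 3 h (187 higher, 120 lower; all units 36.8%, with 22.8% higher and 14% lower). They changed 262 at 9 h (163 higher, 99 lower; all units 30.3%, with 18.2% higher and 12.1% lower) and 286 at 15 h (180 higher, 106 lower; all units 32.5%, with 19.9% higher and 12.6% lower). The whole-library split at 9 h was 124 higher and 121 lower. With 1 library left out 215 to 260, 178 to 197 and 197 to 202 groups were called. The median log2 change of the 650 groups was 0.24, 0.28 and 0.40 at the 3 times, beside 0.22, 0.30 and 0.36 for all units.

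**Figure D1:**
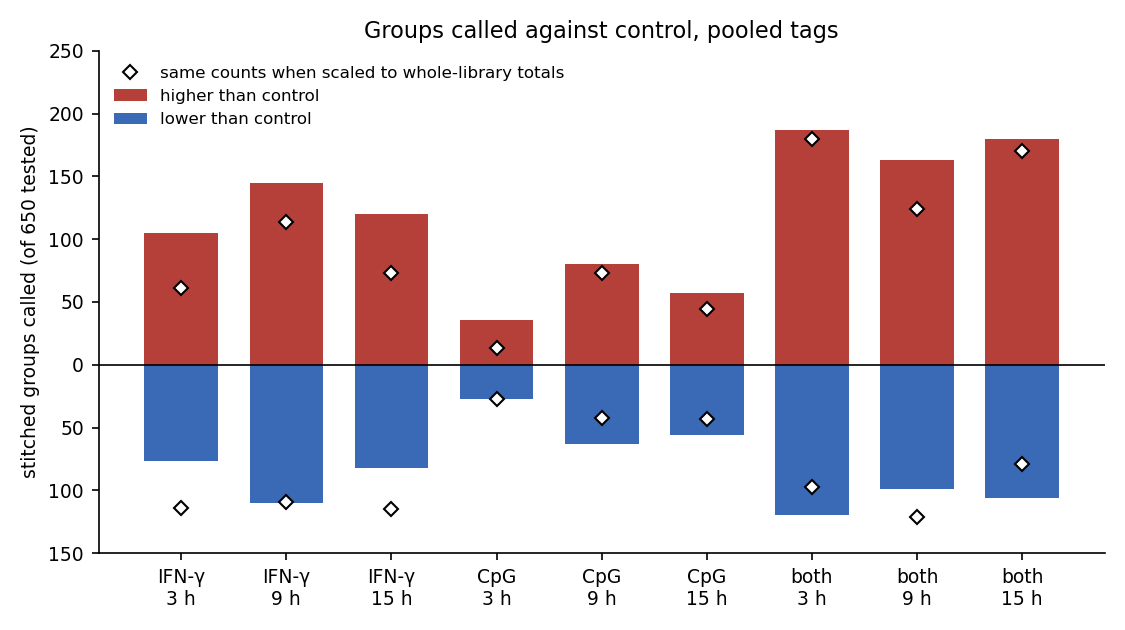
Stitched groups called higher (bars up) or lower (bars down) than control, of 650 tested, for IFN-γ, CpG and both at 3, 9 and 15 h. Open diamonds give the same counts when libraries are scaled to whole-library totals; for IFN-γ at 3 h they sit at 61 higher and 114 lower in place of 105 and 77.

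Several groups with no tag in control cells were called higher after 3 h of both stimuli. The 6 members of chr1:173857307-173881001 had 0 and 0 tags in control and 30 and 58 with both at 3 h, at least 29.2-fold higher (adjusted p = 1.4e-18). Those of chr7:74333671-74347823 had 23 and 38, at least 20.2-fold higher (adjusted p = 1.9e-13), and those of chr5:105290979-105302075 had 21 and 39, at least 19.9-fold higher (adjusted p = 3.5e-13). Each of these groups stayed called without its leading member. The second replicate was the higher in all of them, and it also had more tags over all members (12710 against 9579).

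The 20-member group chr13:5817865-5895417 was the most transcribed of the large groups that rose. It had 23 and 31 tags in control, and at 3 h 56 and 39 under IFN-γ, 42 and 53 under CpG and 154 and 234 under both. The log2 change against control was 2.74 with both (SE 0.22, adjusted p = 1.2e-30) and 1.33 with IFN-γ (SE 0.27, adjusted p = 3.7e-05), and CpG alone was also called higher (adjusted p = 0.0039). These comparisons share the 2 control libraries. With both stimuli the group then had 89 and 95 tags at 9 h and 87 and 99 at 15 h. Of its 11 tested members 6 were called higher with both at 3 h, and all 6 lay before chr13:5854571-5855131, toward the start of the group. The leading member, chr13:5839351-5839665, went from 5 and 1 to 61 and 85 tags, and chr13:5823868-5824274 from 1 and 0 to 13 and 15. At the far end chr13:5895137-5895417 had 3 and 5 tags in control and 7 and 8 with both, which was not called. The change differed between members by more than the replicates did (test of unequal response, group adjusted p = 0.025).

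Later rises under both stimuli were led by chr13:20968365-20984315, with 7 members over 15950 bp. It had 1 and 0 tags in control, 8 and 11 at 3 h, 22 and 19 at 9 h and 40 and 39 at 15 h, the last a ratio of 81.6 (counting interval 14.2 to 3264; log2 change 5.93, SE 0.69, adjusted p = 1.1e-15). CpG alone gave 12 and 14 tags at 15 h and IFN-γ alone 2 and 3. At 9 h each stimulus alone was called higher than control. The log2 change was 4.36 with CpG (adjusted p = 5.2e-05) and 2.81 with IFN-γ (adjusted p = 0.049). With both stimuli at 15 h all 7 members had tags in both libraries and all 4 tested members were called higher. The whole group had 1 and 0 tags in control, so that these members were testable only through stimulated libraries. The 4 members of chr9:88838166-88848816 had 1 and 0 tags in control, 27 and 26 with both at 9 h and 35 and 20 at 15 h (ratio at 9 h 54.8, counting interval 9.42 to 2206; log2 change at 9 h 5.72, SE 0.73, adjusted p = 6.7e-13). In chr6:131240975-131255344 both stimuli gave 30 and 15 tags at 9 h against 0 and 1 (ratio 46.5, counting interval 7.94 to 1879), and in chr6:86547804-86563293 23 and 27 at 15 h against 1 and 0 (ratio 51.7, counting interval 8.86 to 2081). Their log2 changes were 5.49 (SE 0.76, adjusted p = 4.3e-11) and 5.27 (SE 0.76, adjusted p = 2.9e-10).

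With both stimuli chr14:122222995-122251329 had 3 and 0 tags at 3 h, 0 and 0 at 9 h and 0 and 2 at 15 h, against 24 and 34 in control. At 9 h it was at least 18.7-fold lower (adjusted p = 4.2e-10). Each of its 5 members had tags in both control libraries, and none had a tag in either library at 9 h. Likewise chr1:89482846-89509163 had 21 and 31 tags in control and none in either library at 15 h, at least 16.8-fold lower (adjusted p = 1.3e-11), and all 3 tested members were called lower. In chr15:79976905-79990221 29 and 29 tags became 2 and 1 at 3 h (ratio 19.4, counting interval 6.32 to 96.9; log2 change -4.23, SE 0.60, adjusted p = 1.1e-10), in chr9:110495048-110515211 26 and 24 became 0 and 2 at 3 h (ratio 25.1, counting interval 6.60 to 213; log2 change -4.55, SE 0.72, adjusted p = 1.2e-08), and in chr5:120696843-120725852 23 and 23 became 0 and 1 at 9 h (ratio 44.5, counting interval 7.59 to 1794; log2 change -4.91, SE 0.83, adjusted p = 1.4e-07).

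The group with the most tags, chr8:84919232-84930939, fell under both stimuli. It had 177 and 155 tags in control, 59 and 79 with both at 3 h, 35 and 29 at 9 h and 36 and 40 at 15 h, with a log2 change of -2.15 at 15 h (SE 0.21, adjusted p = 6.4e-21). CpG alone gave 49 and 51 at 15 h (log2 change -1.63, SE 0.20, adjusted p = 2.1e-12), and IFN-γ alone gave 85 and 95 (log2 change -0.47, SE 0.19, adjusted p = 0.056). IFN-γ alone was called lower at the earlier times, with 68 and 31 tags at 3 h (log2 change -1.24, SE 0.21, adjusted p = 2.3e-07) and 83 and 90 at 9 h (log2 change -0.80, SE 0.19, adjusted p = 3.2e-04). The group was lower than control in 8 of the 9 comparisons. All 7 members were tested, all had a negative fitted change with both at 15 h, and 6 of them were called; the exception, chr8:84924934-84925546, had 13 and 17 tags in control and 3 and 12 at 15 h.

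**Figure D2:**
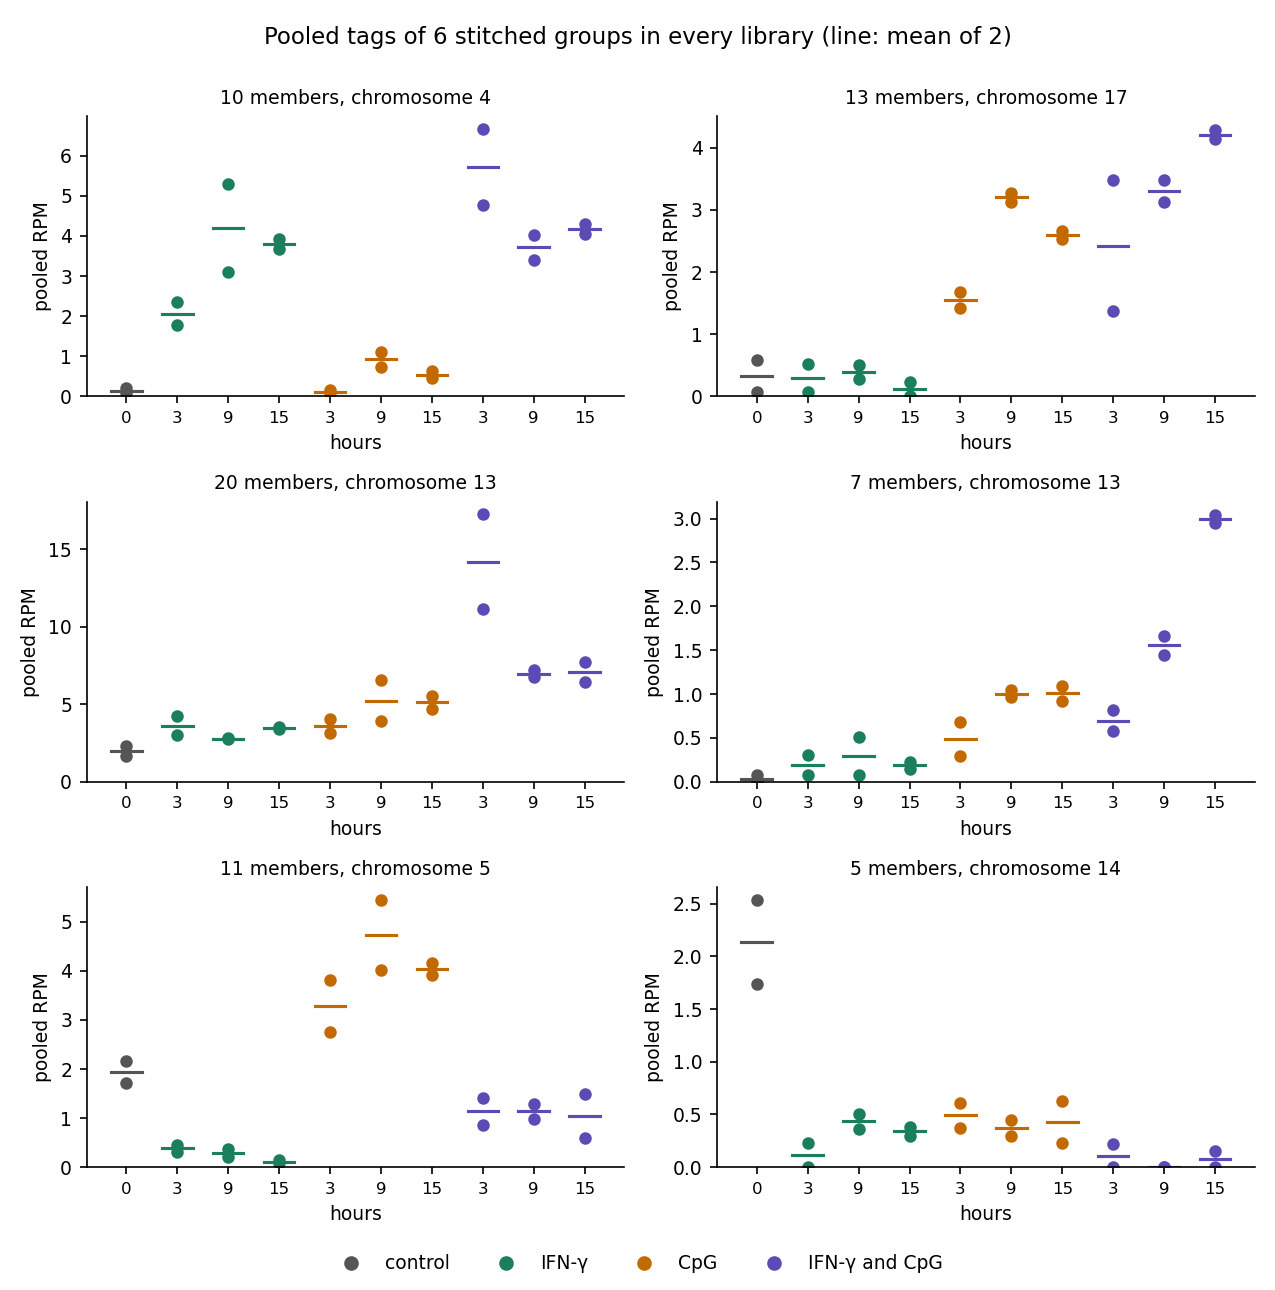
Pooled level of 6 stitched groups in each of the 20 libraries, in tags scaled to whole-library totals (RPM), against hours of treatment; points are libraries and lines the mean of 2. The 10-member group on chromosome 4 is high with IFN-γ and with both, the 13-member group on chromosome 17 with CpG and with both, and the 11-member group on chromosome 5 with CpG alone, while the 5-member group on chromosome 14 is highest in control.

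The next question was whether the stimuli differed from each other on the same groups. CpG and IFN-γ differed in 199 groups at 3 h (87 higher with CpG, 112 lower; all units 18.6%, with 7.65% higher and 10.9% lower). They differed in 266 at 9 h (124 higher, 142 lower; all units 30.5%, with 12.5% higher and 18% lower) and in 225 at 15 h (105 higher, 120 lower; all units 25.1%, with 10.2% higher and 14.8% lower). Whole-library totals turned these splits to 97 and 73, 142 and 107, and 134 and 73. The direction of the majority therefore rested on the scaling. Without 1 library of a comparison 96 to 119, 163 to 188 and 134 to 160 groups were called.

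The widest differences were between presence and near absence. At 9 h the 8 members of chr4:130515037-130527783 had 32 and 30 tags under IFN-γ. With CpG they had no tag, at least 20.1-fold lower than with IFN-γ (adjusted p = 1.9e-15). The 6 members of chr5:100783019-100812862 had 21 and 35 tags under IFN-γ at 9 h, 21 and 31 at 15 h, and no tag in the 4 libraries of CpG at those times. They were thus at least 18.2-fold and 16.8-fold lower with CpG (adjusted p = 4.3e-14 and 6.5e-14). At 3 h chr5:92515589-92518685 had 31 and 15 tags under IFN-γ and no tag under CpG, at least 15.5-fold lower (adjusted p = 1.6e-11). Its 4 members lie within 3096 bp. Over the 9 comparisons with control these groups were called higher in 5, 6 and 5, in the order named, and lower in none.

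Some groups were called lower with IFN-γ and higher with CpG against the same control libraries, or the reverse, with the difference between stimuli itself called. Given opposite calls against the same control, the call of the difference follows almost directly. At each time more groups were called the same way with both stimuli than in opposite ways, in comparisons that share their control libraries. The 11-member group chr5:91023940-91050499 was called in this way at 3, 9 and 15 h. It had 30 and 23 tags in control, and at 15 h 1 and 2 under IFN-γ and 54 and 50 under CpG. The log2 change was -3.64 with IFN-γ (SE 0.61) and 1.07 with CpG (SE 0.29), and the difference between them was 4.70 (ratio 35.7, counting interval 11.9 to 176; SE 0.53, adjusted p = 2.8e-16). With both stimuli the group had 8 and 19 tags at 15 h, and was called lower than control (adjusted p = 0.026).

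The members of that group that were called against control differed between the stimuli. With IFN-γ at 15 h, however, all 5 tested members had a negative fitted change. The test of unequal response did not call the group there (adjusted p = 0.65). The leading member had few tags in control, which left little room for a fall. The leading member, chr5:91048099-91048421, was called higher with CpG (21 and 19 tags at 15 h against 3 and 3 in control), while chr5:91023940-91024237 was called lower with IFN-γ (0 and 0 against 8 and 5) and had 7 and 7 tags with CpG. Also on chromosome 5, the 6 members of chr5:90837505-90851084 had 12 and 14 tags in control, and at 15 h 2 and 0 under IFN-γ and 26 and 30 under CpG (ratio 28.9, counting interval 7.63 to 244; difference 4.35, SE 0.68, adjusted p = 1.2e-08).

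The reverse was seen in chr1:176639887-176661898, with 8 members. It had 15 and 8 tags in control, and at 15 h 31 and 43 under IFN-γ and 3 and 0 under CpG (ratio 23.9, counting interval 7.87 to 119; CpG minus IFN-γ -4.83, SE 0.52, adjusted p = 7.0e-17). Here too the members called against control differed between the stimuli. The leading member had only 1 and 1 tags in control, so that a fall with CpG could hardly be called there. These calls do not by themselves show that the members responded differently. The leading member, chr1:176651455-176651913, rose from 1 and 1 to 17 and 13 tags with IFN-γ and had 0 and 0 with CpG. Its neighbour chr1:176655010-176655584 had 12 and 4 in control, 2 and 8 with IFN-γ, and fell to 0 and 0 with CpG. With both stimuli at 3 h the leading member reached 83 and 111 tags. In chr2:152989236-153021584 CpG gave 17 and 26 tags at 9 h and IFN-γ 1 and 0, a ratio of 44.2 (counting interval 7.52 to 1785; adjusted p = 4.3e-08).

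Adding CpG to IFN-γ changed 86 groups at 3 h (55 higher, 31 lower; all units 6.15%, with 4.18% higher and 1.97% lower), 114 at 9 h (67 higher, 47 lower; all units 11.3%, with 6.61% higher and 4.68% lower) and 160 at 15 h (102 higher, 58 lower; all units 16.4%, with 9.24% higher and 7.19% lower). By whole-library totals the split was 113 higher and 4 lower at 3 h and 159 higher and 24 lower at 15 h. At 9 h it was 44 higher and 46 lower, so that the majority turned there. Without 1 library of a comparison 6 to 33, 55 to 69 and 73 to 102 groups were called. The 13-member group on chromosome 17 that rose with CpG, chr17:18082547-18122486, had 56 and 55 tags with both at 15 h against 3 and 0 with IFN-γ alone (ratio 37.3, counting interval 12.4 to 184; log2 difference 4.67, SE 0.52, adjusted p = 5.1e-16). In chr3:58415708-58429079 both stimuli gave 24 and 33 tags at 9 h and IFN-γ 1 and 0 (ratio 59.7, counting interval 10.3 to 2400; log2 difference 5.73, SE 0.73, adjusted p = 3.0e-12).

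Some groups called higher with IFN-γ than in control were lower again when CpG was added. The 5 members of chr17:34505490-34524064 at 15 h had 18 and 23 tags under IFN-γ and 2 and 1 under both (ratio 13.6, counting interval 4.33 to 68.5; log2 difference -4.09, SE 0.65, adjusted p = 6.0e-08), beside 7 and 6 in control. The 10 members of chr9:45178838-45212066 at 15 h had 20 and 31 under IFN-γ and 2 and 5 under both (log2 difference -3.26, SE 0.51, adjusted p = 6.0e-08). At 9 h the 8 members of chr16:10251104-10270601 had 26 and 58 with IFN-γ and 5 and 8 with both (log2 difference -2.44, SE 0.42, adjusted p = 8.9e-07).

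Adding IFN-γ to CpG changed 229 groups at 3 h (145 higher, 84 lower; all units 24.8%, with 16.1% higher and 8.7% lower), 149 at 9 h (103 higher, 46 lower; all units 13.8%, with 9.58% higher and 4.18% lower) and 145 at 15 h (111 higher, 34 lower; all units 14%, with 10.5% higher and 3.47% lower). By whole-library totals the split was 166 and 41 at 3 h and 54 and 70 at 9 h, so that the majority at 9 h turned with the scaling. When 1 library was left out 140 to 177, 63 to 81 and 44 to 75 groups were called. At 3 h chr5:92515589-92518685 had 35 and 28 tags under both and no tag under CpG, at least 20.3-fold higher (adjusted p = 7.5e-12). The 21-member group chr14:25458377-25520465 was lower with both at 3 h, with 2 and 13 tags against 38 and 36 with CpG (log2 difference -2.67, SE 0.38, adjusted p = 5.0e-10) and 48 and 54 in control. At 9 h chr11:70359529-70390745 had 41 and 38 tags with both and 5 and 7 with CpG (log2 difference 3.09, SE 0.40, adjusted p = 7.7e-12). The leading member chr11:70359529-70359904 had 7 and 8 tags in control, 3 and 3 with CpG and 17 and 16 with both. Its neighbour chr11:70366036-70366623 had 3 and 3, 0 and 0, and 12 and 17.

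Between 3 h and 15 h of both stimuli together 166 groups differed (87 higher at 15 h, 79 lower; all units 17.1%, with 9.03% higher and 8.11% lower). With IFN-γ alone 27 differed (15 higher, 12 lower; all units 2.59%, with 1.59% higher and 1% lower) and with CpG alone 34 (15 higher, 19 lower; all units 2.8%, with 1.25% higher and 1.55% lower). Whether these numbers of groups differ between the stimuli was not tested. Under whole-library totals IFN-γ split 10 to 5 and CpG 15 to 6. When 1 library was left out 68 to 101, 4 to 11 and 6 to 12 groups were called.

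Under both stimuli some groups were highest at 3 h and others at 15 h. The 6 members of chr11:81957936-81991399 had 1 and 0 tags in control, 35 and 52 with both at 3 h, 5 and 8 at 9 h and 3 and 7 at 15 h (15 h minus 3 h -3.02, SE 0.45, adjusted p = 8.7e-09), and all 6 had tags at 3 h. The 9 members of chr7:101873173-101897892 went the other way, from 3 and 2 tags at 3 h to 14 and 19 at 9 h and 26 and 26 at 15 h (log2 difference 3.36, SE 0.55, adjusted p = 1.8e-07). In chr5:65040916-65044839 the sum was 2 and 8 tags at 3 h and 25 and 46 at 15 h (log2 difference 2.85, SE 0.45, adjusted p = 7.3e-08). With IFN-γ alone chr4:128622211-128627817 peaked early, at 35 and 28 tags at 3 h, 12 and 11 at 9 h and 7 and 5 at 15 h, against 5 and 3 in control (15 h minus 3 h -2.48, SE 0.45, adjusted p = 4.0e-05). In chr1:58760298-58767329 46 and 37 tags at 3 h became 13 and 9 at 15 h (log2 difference -2.01, SE 0.35, adjusted p = 2.1e-05).

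The enhancers were also tested one by one, over all 2792 enhancers with enough tags. Of the 3728 members 1248 were among them and 2480 were not, and the tested ones held 70.0% of member tags. Members passed this filter more often than other enhancers (33.5% against 20.6%). An enhancer passes through any libraries in which it is high. The number of tested members called in a named group is thus not independent of its response. IFN-γ changed 139 of the 1248 tested members at 3 h (10.5% of all tested enhancers), 244 at 9 h (19.4%) and 183 at 15 h (15%). CpG changed 20 (1.54%), 88 (6.98%) and 96 (7.59%), and both together 358 (27.4%), 285 (22.3%) and 334 (25.3%). The share of tested members called, from 1.60% with CpG at 3 h to 28.7% with both at 3 h, stayed close to these percentages of all tested enhancers. When 1 library was left out the counts of members called were lower by more than 1.5 times in every comparison, at 34 to 48, 78 to 131 and 45 to 73 for IFN-γ, 3 to 9, 16 to 27 and 22 to 34 for CpG, and 151 to 235, 129 to 161 and 149 to 209 for both.

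Pooling called groups in which no single enhancer passed. Of the 182 groups called with IFN-γ at 3 h, 97 had a member called the same way and 85 had none. With both stimuli at 3 h it was 201 and 106 of 307, and with CpG at 3 h 18 and 45 of 63. No called group had its called members only in the opposite direction. The share of units called rose with their number of members: with both stimuli at 3 h it was 28.4% of single enhancers, 40.2% of groups of 4 and 59.1% of groups of 10 or more. Tags rose along with it, from a median of 60 over 20 libraries in tested singles to 125 in groups of 4 and 559.5 in groups of 10 or more, and the part of depth in these shares was not tested.

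The second question was how far neighbours moved together. Each pair of adjacent tested enhancers was compared over the 10 groups of libraries, taking one enhancer from replicate 1 and the other from replicate 2, so that counting noise of one library did not enter both. The correlation so obtained describes whether 2 enhancers rise and fall in the same groups of libraries; all pairs share the libraries and their scaling, and pairs that share an enhancer are not independent. For 705 neighbour pairs inside the stitched groups the median was 0.364 (quartiles 0.146 and 0.556). It was 0.381 for 203 pairs in groups of 2 or 3, 0.236 for 300 pairs with a gap above the stitching distance and up to 50 kb, 0.148 for 427 pairs at 50 to 200 kb, and 0.002 for 1135 adjacent pairs farther apart. The same enhancer compared with itself across replicates gave a median of 0.543, so that neighbours in a group came partway to the likeness that replicates of 1 enhancer showed. Median tags of the pairs were similar, at 63 to 75 over 20 libraries.

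**Figure D3:**
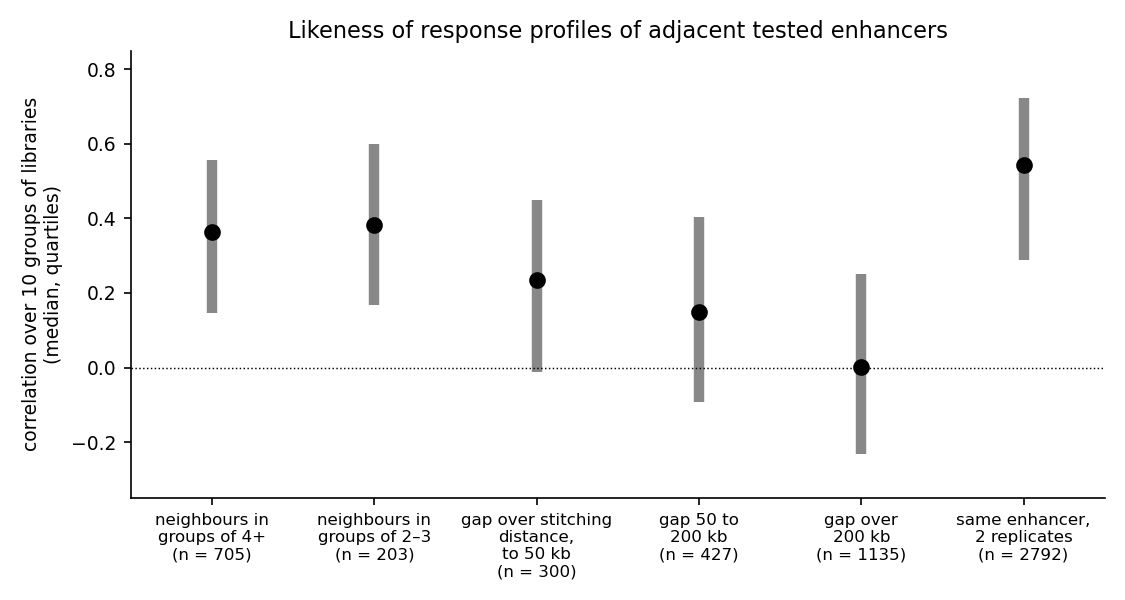
Correlation of response profiles over the 10 groups of libraries for adjacent tested enhancers, by the gap between them; points are medians, bars run between the quartiles of pairs, n the number of pairs. The median falls from 0.364 inside groups of 4 or more to 0.002 beyond 200 kb, and the last column is the same enhancer in the 2 replicates (0.543).

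Inside the groups the medians lay between 0.331 and 0.452 at all distances. Neighbours within 500 bp had a median correlation of 0.424 (106 pairs), those 500 to 1000 bp apart 0.452 (54 pairs), those up to 2500 bp 0.337 (127 pairs), those up to 5000 bp 0.381 (154 pairs) and those farther apart 0.331 (264 pairs). Tested neighbours can have untested members between them, and the last class reached gaps of 36159 bp.

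Likeness was also read for each comparison with control separately, as the correlation across neighbour pairs of the log2 changes, again with 1 enhancer from each replicate. Inside groups it was highest with both stimuli at 3 h (0.573), 9 h (0.482) and 15 h (0.50) and with IFN-γ at 9 h (0.521). It was 0.425 and 0.459 with IFN-γ at 3 and 15 h. It was lowest with CpG, at 0.213, 0.353 and 0.362. A single enhancer compared with itself across replicates ranged in the same way, from 0.337 with CpG at 3 h to 0.717 with both at 3 h. Beyond 200 kb the values lay between -0.003 and 0.076. The fitted changes of neighbours had the same sign in 61.0% of pairs with CpG at 3 h to 73.3% with both at 3 h, beside 45.7% and 49.7% of pairs beyond 200 kb. In groups of 2 or 3 these shares were 56.7% and 77.3%, and the correlations 0.249 and 0.567. These are descriptions across pairs of enhancers, which are not independent replicates.

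Where a group had at least 2 called members, these mostly went the same way. With both stimuli at 3 h 84 groups had at least 2 called members, and in 82 of them these agreed in direction; with IFN-γ at 9 h it was 45 of 46, and with CpG at 9 h 9 of 10. With both stimuli at 15 h 65 of 72 agreed and 7 had members called in both directions. Members called with both at 3 h were 244 higher and 114 lower, so that unrelated called members would often agree too. How much of the agreement this gives was not tested. In the groups called with both at 3 h, 639 of 671 tested members had the sign of the group, which contains them.

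A comparison without that overlap set the leading member against the sum of the rest, in the 500 groups where both could be tested. Both parts came from the same libraries, unlike in the correlations above, so that a deviation of 1 library could enter both. The part of depth in the shares below was not tested. With both stimuli at 3 h the leading member was called higher in 105 groups. The rest was called higher in 70 of these and lower in none, beside 22.8% of all 500 groups in which the rest was higher; its median log2 change in the 105 was 2.39. In the 54 groups where the leading member was lower the rest was lower in 37 and higher in 1, beside 18% of all. With IFN-γ at 9 h the rest was higher in 45 of 75 groups with a higher leading member, beside 17.8% of all, and with CpG at 9 h in 10 of 27, beside 6.2%.

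**Figure D4:**
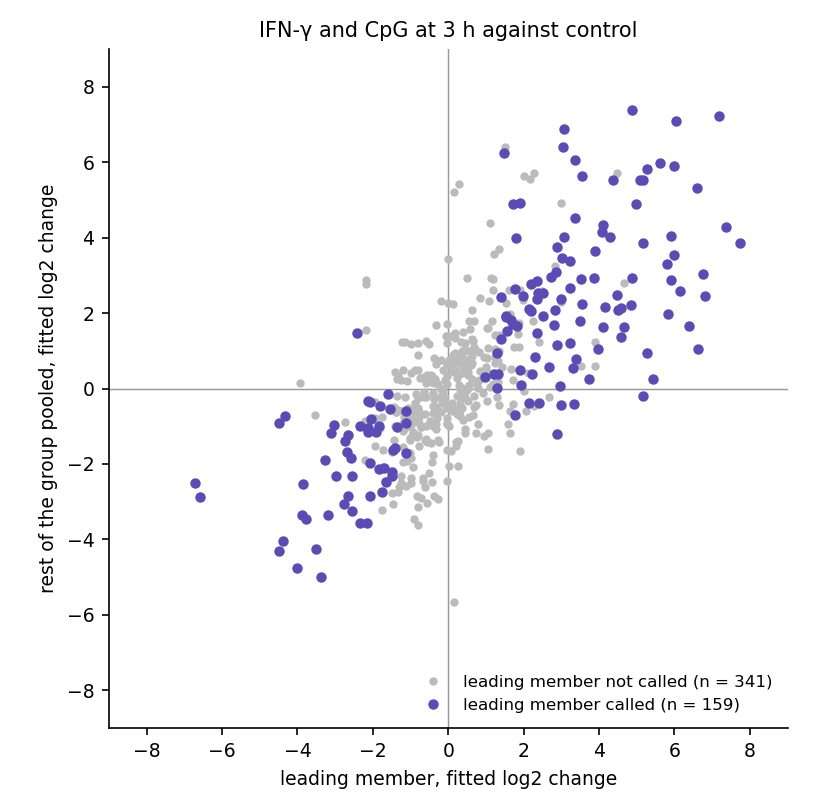
Fitted log2 change against control with IFN-γ and CpG at 3 h, for the member with the most tags in each of 500 stitched groups (x axis) and for the pooled rest of the same group (y axis). Purple points are groups whose leading member was called; where it was called higher, the rest was called higher in 70 of 105 groups and lower in none.

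Leaving the leading member out of the sums kept a part of the calls. Of groups called against control with IFN-γ, 105 of 182, 168 of 255 and 110 of 202 were called without it; with CpG 18 of 63, 63 of 143 and 58 of 113; with both 217 of 307, 167 of 262 and 186 of 286. None became called in the opposite direction, and nearly all those that could still be tested kept their sign, for example 292 of 293 with both at 3 h. Fewer tags were tested in these sums. They are also part of the sums by which the groups were called, in the same libraries, so that the kept signs are no independent support.

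Members did not always change alike. Whether the members of a group changed by the same factor was tested in the 354 groups with at least 2 tested members. Unequal responses were found in 2, 10 and 8 groups with IFN-γ at 3, 9 and 15 h. With CpG it was 0, 2 and 1, and with both 18, 21 and 32. Among all 545 units tested, pairs and triples included, the percentages were 0.734%, 2.02% and 1.83%, then 0%, 0.55% and 0.367%, and 3.67%, 4.95% and 7.16%. For CpG at 3 h, where edgeR's test gave no group, 34 of 354 were under an unadjusted p of 0.05. These counts rested on both replicates. Without 1 library they were 0 to 1, 0 to 1 and 0 to 2 with IFN-γ, 0 to 1, 0 to 2 and 0 to 2 with CpG, and 1 to 4, 1 to 13 and 2 to 9 with both.

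The most unequal group was chr8:71061809-71071886, with 5 members in 10077 bp. Its sum rose little with both stimuli at 15 h (54 and 52 tags in control, 79 and 91 at 15 h; log2 change 0.65, SE 0.22, adjusted p = 0.016). Within it 2 members near one end had most of the control tags. The first, chr8:71061809-71062486, had 27 and 21 tags in control and 15 and 16 at 15 h, and its neighbour chr8:71062686-71063373 26 and 28 against 32 and 36. Farther along, chr8:71067165-71067416 went from 1 and 1 to 12 and 20 and chr8:71071385-71071886 from 0 and 2 to 15 and 15, and both were called higher (group adjusted p for unequal response 1.6e-05). At 3 h of both stimuli chr8:71061809-71062486 was called lower, at 5 and 2 tags, and the 2 distal members had 0 and 2 and 8 and 3. Over the 10 groups of libraries the profiles of its adjacent tested members still correlated at 0.537 to 0.807 (3 pairs). Members that are not adjacent were not compared.

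In chr10:117551104-117560529 the members called higher with IFN-γ lay side by side. The leading member, chr10:117555820-117556219, had no tag in control or with CpG at 3 h, and 12 and 6, 12 and 22 and 8 and 6 with IFN-γ at 3, 9 and 15 h. Just beside it chr10:117554928-117555452 went from 2 and 0 to 10 and 15 at 9 h, while chr10:117553570-117553863 had 7 and 4 in control and 1 and 2 at 9 h, which was not called (group adjusted p for unequal response 1.0e-04).

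Members of other groups moved in different directions. In chr10:88241652-88256896 the sum did not pass with both stimuli at 9 h (21 and 15 tags in control, 13 and 19 at 9 h; log2 change 0.17, SE 0.40, adjusted p = 0.78). Inside it chr10:88256571-88256896 rose from 0 and 1 to 10 and 14, and the leading member chr10:88253573-88253880 had 16 and 10 in control and 3 and 4 at 9 h (unequal response, adjusted p = 1.3e-04). In chr2:167192188-167225739 with IFN-γ at 15 h, chr2:167192188-167192626 rose from 0 and 0 to 4 and 5 and chr2:167194465-167194812 from 1 and 0 to 4 and 10, whereas chr2:167217104-167217506, beyond them in the group, fell from 12 and 10 to 1 and 1 (unequal response, adjusted p = 1.7e-04). The sum of these 8 members was 21 and 14 tags in control and 17 and 26 at 15 h, and was not called (adjusted p = 0.16).

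Some of the 8 members of chr16:10293853-10318827 had their most tags at different times with IFN-γ, but no test compared the times between members. With IFN-γ chr16:10293853-10294118 had 0 and 4 tags at 3 h, 12 and 11 at 9 h and 1 and 7 at 15 h, against none in control. Its neighbour chr16:10299427-10299571 had 1 and 0, 2 and 1 and 6 and 6. At the other end chr16:10315976-10316370 was highest at 3 h, with 13 and 10 tags at 3 h against 2 and 3 in control, and 2 and 1 and 1 and 4 later. The sum stayed between 21 and 29 tags in all 6 IFN-γ libraries and was called higher than control at each time. The test of unequal response called the group at 15 h against control (adjusted p = 3.5e-04). It does not test an order over the times.

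**Figure D5:**
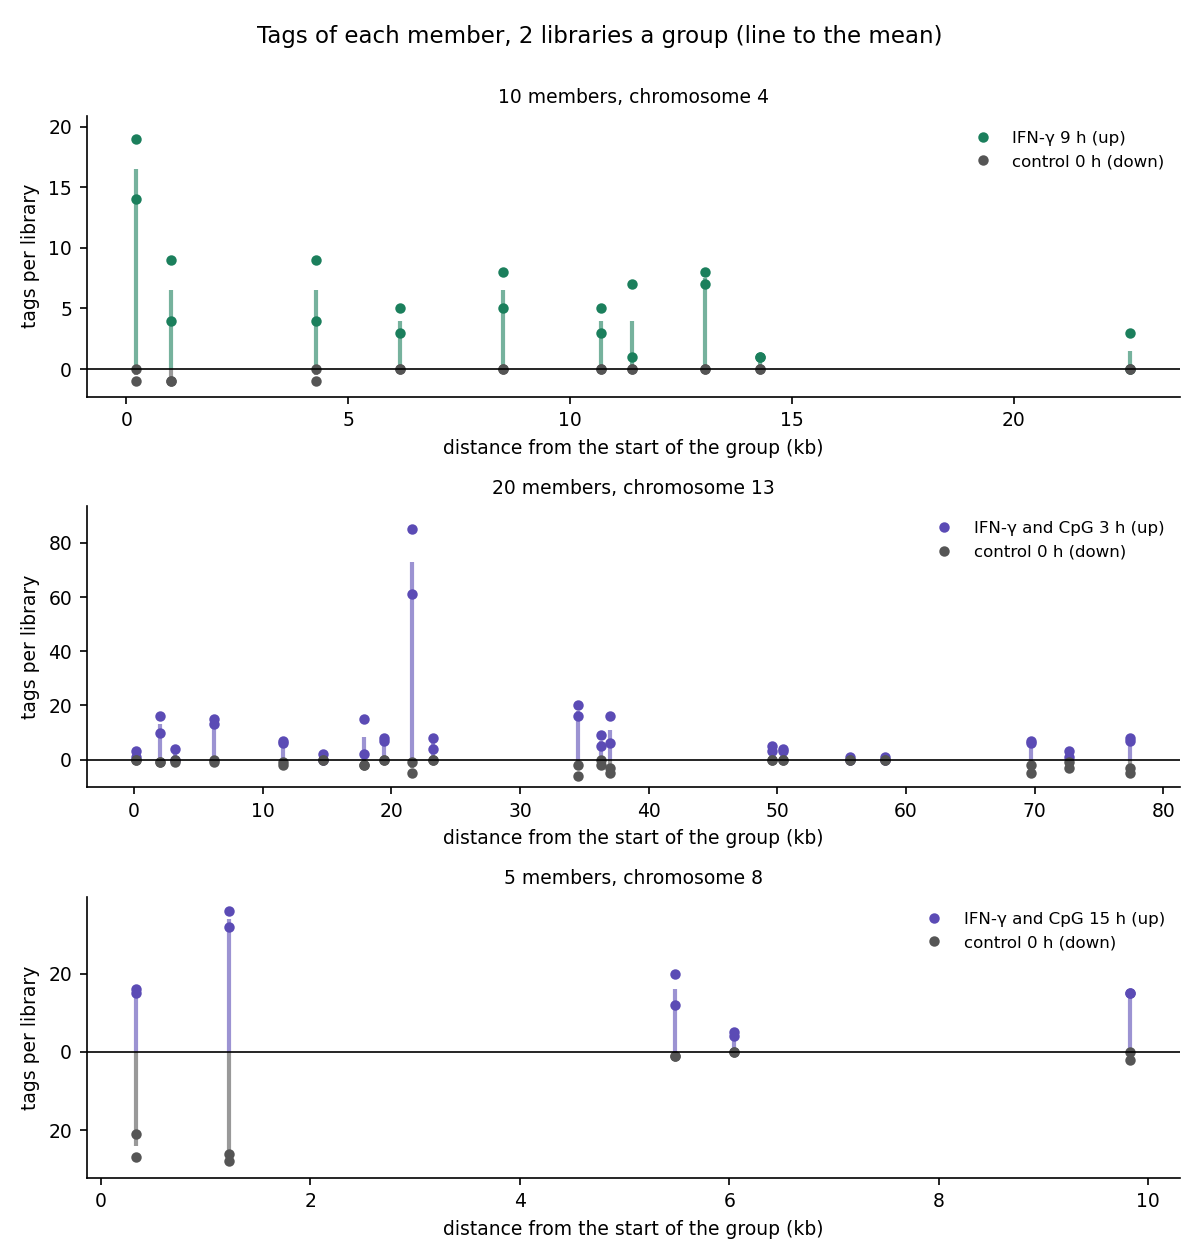
Tags of every member in 3 stitched groups, by distance of its middle from the start of the group in kb, with stimulated libraries drawn upward and control libraries downward from 0; points are libraries and lines end at the mean of 2. In the 10-member group on chromosome 4 all members have tags with IFN-γ at 9 h and at most 1 in control, in the 20-member group on chromosome 13 the called members lie toward the start, and in the 5-member group on chromosome 8 the distal members gain tags while the first has fewer.

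Sums that were not called could also hold called members, sometimes in opposite directions. Among the 16 members of chr4:144937920-145010319 the sum was 47 and 39 tags in control and 43 and 37 with both stimuli at 9 h (log2 change 0.24, SE 0.26, adjusted p = 0.52). Within it chr4:144948427-144949032 fell from 9 and 11 tags to 0 and 0 and chr4:144996628-144997090 rose from 1 and 3 to 10 and 10 (unequal response, adjusted p = 9.8e-04). The 12-member group chr3:95542875-95583128, whose sum was called in none of the 9 comparisons with control, contained chr3:95581098-95581353, which went from 0 and 1 tags in control to 4 and 7, 7 and 9 and 5 and 13 with IFN-γ at 3, 9 and 15 h and was called each time. Its leading member chr3:95557709-95558344 held 43.3% of the tags and had 34 and 33 in control and 21 and 27 with IFN-γ at 15 h. The IFN-γ libraries at 15 h also had fewer enhancer tags in all (16478 and 17820, against 22026 and 20301 in control).

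The members together held 42.6% ± 0.83 (SD, n = 2) of enhancer tags in control cells and 42.4% ± 1.30 (SD, n = 18) in stimulated cells, a difference of -0.188 percentage points (exact permutation test over 190 arrangements, two-sided p = 0.82). With both stimuli the share was 43.6% ± 0.72 (SD, n = 6), beside 41.5% ± 1.38 with IFN-γ and 42.0% ± 0.64 with CpG (n = 6 each, times pooled). Both stimuli exceeded IFN-γ by 2.101 points (exact permutation p = 0.046, arrangements kept within times) and CpG by 1.60 points (exact permutation p = 0.028). After adjustment over the 3 pairs of stimuli neither passed (adjusted p = 0.069 for each, exact permutation test). Over tested enhancers alone both passed (adjusted p = 0.014 for each, exact permutation test), and with stitching at 25000 bp the excess over CpG passed (adjusted p = 0.028, exact permutation test). Between CpG and IFN-γ the difference was 0.505 points (exact permutation p = 0.27).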

How the data were processed

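Enhancer tags were analysed in 20 nAnT-iCAGE libraries, 2 for each of 10 groups taken from the sample labels. The authors deposited whole-number counts of tags per enhancer, and a second table whose values are those counts per whole-library total (RPM), per the file headers and the values themselves: at a tolerance of 0.01, 100% of the RPM values gave back whole tags. Of tools, the submitters' processing notes name HISAT2 2.1.0, BWA 0.7.10, Trimmomatic 0.38 and FastQC 0.11.5. The enhancer caller is not given in the sources used here, nor is whether starts count from 0 or 1. Overlap with genes was not checked.

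Enhancers were stitched at 12500 bp and their tags summed per stitched group, group of 2 or 3, or single enhancer. edgeR 4.0.16 (R 4.3.3) fitted all 20 libraries with a quasi-likelihood model, TMM factors on enhancer tags and a filter of 5 tags (15 in total). p-values were adjusted by Benjamini-Hochberg over 2391 units or 2792 enhancers, with a threshold of 0.05, and the unequal response test was adjusted over the groups it could be run on. Data were simulated for IFN-γ at 3 h over 2391 units, with changes put into stitched groups of 4 or more alone. Of these, 88% of 4-fold and 26% of 2-fold rises were called, and 30% of 4-fold and 10% of 2-fold falls. For unequal response the leading tested member alone was raised, and 78.67% of 8-fold and 56.58% of 4-fold rises were called. Correlations used log2 values with a prior count of 2. Bounds against 0 tags took 3 tags over the group. Alternatives were DESeq2 1.42.0, other factors, filters, stitching at 5000 and 25000 bp, a replicate block, sums without the leading member and leaving out each library. Groups were named by a rule: the 5 with most members, the 5 with most tags, the largest called rises and falls of each comparison (libraries not overlapping, at least 10 tags per library on average) and the 5 with the smallest p for unequal response. Inside them the rule takes the leading member and up to 3 called members, and others were chosen after their values were seen. The rule for groups and the lists were chosen with earlier results of these data known. Python 3.11.15 with pandas 2.3.3, numpy 2.4.6, scipy 1.17.1 and matplotlib 3.10.9 did the rest.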

Additional observations from a re-analysis of the deposited data

Results flagged for a closer look

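Some groups were lower than control with IFN-γ and higher with CpG, or the reverse, with the difference between stimuli called by edgeR (adjusted p under 0.05). The call of the difference follows almost directly from the opposite calls and is no separate support. Values are CpG minus IFN-γ on the log2 scale, so that values above 0 are higher with CpG. Both stimuli are set against the same 2 control libraries. At 3 h chr5:91023940-91050499 (2.87) was higher with CpG and chr8:123633162-123668225 (-3.26) was higher with IFN-γ. At 9 h the groups higher with CpG were chr5:91023940-91050499 (3.77), chr4:144937920-145010319 (2.88), chr5:90837505-90851084 (4.28), chr7:75306179-75319526 (2.54), chr11:117830590-117855881 (2.67), chr6:123228970-123243294 (2.82), chr2:152989236-153021584 (4.92), chr1:64334468-64348077 (2.11), chr16:95615790-95640579 (4.75), chr16:14168532-14182139 (3.65) and chr5:127687892-127693404 (4.02). Those higher with IFN-γ at 9 h were chr1:176639887-176661898 (-3.91), chr1:131585827-131631612 (-2.35), chr10:60079789-60121260 (-2.58) and chr16:10293853-10318827 (-2.45). At 15 h the groups higher with CpG were chr5:91023940-91050499 (4.70), chr5:90837505-90851084 (4.35) and chr5:124608749-124618717 (2.88). Those higher with IFN-γ at 15 h were chr1:176639887-176661898 (-4.83), chr8:123633162-123668225 (-3.94) and chr4:64002118-64016855 (-2.81). The call of chr8:123633162-123668225 against control with CpG at 3 h was lost without control replicate 2 or either CpG library.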

How the results depend on the processing

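Counts of groups are given here in 1 order: IFN-γ, CpG and both against control, each at 3, 9 and 15 h; then CpG minus IFN-γ, both minus IFN-γ and both minus CpG, each at 3, 9 and 15 h; then 15 h minus 3 h for IFN-γ, CpG and both. As reported, edgeR called 182, 255, 202, 63, 143, 113, 307, 262 and 286 against control, 199, 266, 225, 86, 114, 160, 229, 149 and 145 between stimuli and 27, 34 and 166 between 15 h and 3 h. Relative log expression factors and the replicate block moved none of these 21 counts by more than 1.5 times. DESeq2 called fewer, namely 126, 158, 130, 18, 67, 61, 224, 173 and 188 against control, 117, 173, 144, 31, 66, 91, 144, 82 and 68 between stimuli and 16, 18 and 92 between 15 h and 3 h. Stitching at 5000 bp, which splits groups, gave 109, 154, 128, 40, 99, 73, 187, 165 and 183 against control, 115, 174, 148, 39, 76, 96, 131, 100 and 96 between stimuli and 21, 22 and 89 between 15 h and 3 h. Stitching at 25000 bp moved no count of groups by more than 1.5 times. Sums without the member with the most tags gave 127, 182, 127, 25, 70, 70, 233, 195 and 208 against control, 123, 189, 151, 37, 74, 105, 160, 86 and 72 between stimuli and 9, 9 and 91 between 15 h and 3 h. With no filter on low counts, CpG at 3 h had 34 called groups, both minus CpG at 15 h 84 and 15 h minus 3 h of CpG 22. With whole-library totals CpG at 3 h had 40, 15 h minus 3 h of IFN-γ 15 and of CpG 21. Leaving out 1 library at a time gave 96 to 120, 133 to 178, 113 to 137, 13 to 20, 71 to 76, 52 to 70, 215 to 260, 178 to 197 and 197 to 202 groups against control. It gave 96 to 119, 163 to 188, 134 to 160, 6 to 33, 55 to 69, 73 to 102, 140 to 177, 63 to 81 and 44 to 75 between stimuli and 4 to 11, 6 to 12 and 68 to 101 between 15 h and 3 h. A lone library was then assumed to vary like the other groups, and fewer libraries entered each fit. Single members called against control, 139, 244, 183, 20, 88, 96, 358, 285 and 334 as reported, were 36, 72, 52, 12, 18, 24, 128, 114 and 115 with DESeq2 and 34 to 48, 78 to 131, 45 to 73, 3 to 9, 16 to 27, 22 to 34, 151 to 235, 129 to 161 and 149 to 209 with 1 library left out. With no filter on low counts there were 61, 143, 89, 11, 29 and 43 for IFN-γ and CpG, and the counts for both moved less. Groups whose members responded unequally, 2, 10, 8, 0, 2, 1, 18, 21 and 32 as reported, were 0 to 1, 0 to 1, 0 to 2, 0 to 1, 0 to 2, 0 to 2, 1 to 4, 1 to 13 and 2 to 9 with 1 library left out. The stricter filter gave 7 for IFN-γ at 3 h and 3 for CpG at 15 h. For both it gave 10 at 9 h and 21 at 15 h. Whole-library totals gave 1 with IFN-γ at 3 h and 0 with CpG at 15 h, and the replicate block gave 0 with CpG at 15 h. The numbers on the libraries showed no pairing: over 45 pairs of groups the correlation of same-numbered deviations ran from -0.037 to 0.039. Counting noise makes up much of such deviations, so that a pairing could be missed. Of the differences in the members' share of enhancer tags, those of all stimulated libraries from control (-0.188 points) and of CpG from IFN-γ (0.505 points) turned sign: at 25000 bp they were 0.0917 and -0.319 points. Both minus CpG was then 2.15 points and passed (adjusted p = 0.028, exact permutation test). None of the 4 differences passed as reported. Over tested enhancers alone, both exceeded CpG by 1.57 and IFN-γ by 2.62 points, and both passed (adjusted p = 0.014 for each, exact permutation test). With 1 library left out, a setting added after the data were seen, the differences were -0.775 to 0.399 points for all stimulated minus control (above 0 without control replicate 1), 0.229 to 0.781 for CpG minus IFN-γ, 1.95 to 2.25 for both minus IFN-γ and 1.32 to 1.87 for both minus CpG, and 3 of these values passed. Correlations across replicates need both libraries, so that none could be left out there. Depth limits the single member most, since 1248 of 3728 members had enough tags for a test. The cause of these shifts was not tested.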
